A study of Homo sapiens with 6 samples.

Results

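Ion and pH exchange transporters are carriers of the SLC4, SLC8, SLC9, SLC12, SLC13, SLC20, SLC24, SLC26 and SLC34 families, and their genes were taken from the deposited tables by symbol, SLC with the family number, A and a further number. This gave 60 genes among 23245 usable rows, of which 26 reached the level needed for testing. The cells were L3.6pl, a human line of pancreatic carcinoma, with 3 ARID1A-deficient libraries (titled ARID1Ako) and 3 parental libraries with wild-type ARID1A, all grown in the same medium with serum and without drug. The labels name neither the method of ARID1A disruption nor the number of clones behind the ARID1A-deficient libraries. Other differences between the cells and the loss of ARID1A therefore cannot be told apart. The labels speak of triplicate samples without saying that they were separate cultures, so p-values measure the spread between these samples, which may be technical.

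Carriers of these families move ions across membranes by coupling their gradients. Sodium-proton exchangers (SLC9) and sodium-coupled bicarbonate importers (SLC4) remove acid from the cytoplasm, and chloride-bicarbonate exchangers (SLC4 and SLC26) load it. The SLC12 cotransporters set cell volume and chloride, SLC8 and SLC24 carriers export calcium, and SLC20 and SLC34 carriers import phosphate. Pancreatic duct cells are known for bicarbonate secretion through such carriers, and ARID1A belongs to the SWI/SNF complex, which repositions nucleosomes.

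Values are in FPKM, fragment counts corrected for transcript length and library size, so that levels of different genes can be compared. The libraries summed to between 576084 and 792187 FPKM, with 15635 to 16391 rows above 0, and the spacing of their lowest values put their depth at 0.732 to 1.27 times that of parental library 1. ARID1A itself measured 3.55, 3.28 and 3.61 FPKM in ARID1A-deficient libraries, against 11.8, 6.76 and 9.42 FPKM in parental libraries (log2 fold change -1.18, SE 0.18, limma adjusted p = 0.00610). The epithelial markers EPCAM, KRT7, KRT8, KRT18, KRT19 and CDH1 were measured in every library, with a summed level of 4527 to 5723 FPKM in ARID1A-deficient and 6286 to 9831 FPKM in parental libraries. Among these markers the groups overlapped for KRT18 only, but none passed by limma (lowest adjusted p = 0.0828, for KRT8). The 5 fibroblast markers summed to 0.0163 to 0.0485 FPKM in ARID1A-deficient and 0.00749 to 0.0585 FPKM in parental libraries, with DCN and LUM listed at 0 throughout. The 5 leukocyte markers (1 of them listed at 0 throughout) summed to 0.187 to 0.407 FPKM and 0.0494 to 0.189 FPKM. The 4 endothelial markers summed to 8.64 to 9.23 FPKM in ARID1A-deficient and 8.43 to 10.0 FPKM in parental libraries. Nearly all of this came from CDH5 and PECAM1, while VWF and KDR did not exceed 0.0307 FPKM. PECAM1 was lower in ARID1A-deficient cells (limma adjusted p = 0.0254), and CDH5 had a limma adjusted p of 0.594. The 4 acinar markers, with AMY2A listed at 0 throughout, summed to 1.57 to 3.05 FPKM in ARID1A-deficient and 0.959 to 1.09 FPKM in parental libraries. The part of these markers in the results below was not tested.

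The summed level of the transporter genes differed little between ARID1A-deficient and parental cells. It was 208, 214 and 225 FPKM in ARID1A-deficient libraries, against 222, 215 and 208 FPKM in parental libraries, so the groups overlapped (216 ± 8.83 and 215 ± 6.71 FPKM, SD, n = 3 each). The highest genes make up much of this sum, and opposite changes of single genes cancel in it. Of the 26 tested genes, 2 were higher (SLC12A4 and SLC20A2), 1 was lower (SLC12A7) and 23 did not pass the limma test, adjusted by the Benjamini-Hochberg method over all 12826 tested genes. That is 11.5% of the tested transporter genes, beside 15.9% of all tested genes, 7.82% of them higher and 8.11% lower. Without adjustment, 3 of the 26 had a p under 0.05 with a higher level and 3 with a lower level. Over all 12826 tested genes these numbers were 1771 and 2010.

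The log2 fold changes, which are on the log2(FPKM + 1) scale and understate changes of low genes, had a median of 0.01 over the tested transporter genes and -0.01 over all tested genes. Their median absolute size was 0.21 and 0.20. None of the 26 reached 2-fold, that is an absolute log2 fold change of 1, which 673 of all 12826 tested genes did. The 95% interval of the fold change, taken gene by gene from limma, stayed within 2-fold in either direction for all 26, with bounds from -0.75 to 0.76. The same held for 87.2% of all tested genes. With a pseudocount of 0.1 FPKM it held for 25 of the 26, the exception being SLC26A1, and for 77.8% of all tested genes. The groups did not overlap for 8 of the 26 transporter genes, or 30.8%, beside 35.3% of all tested genes. ARID1A-deficient libraries were above in 4 of them and below in 4, beside 16.7% and 18.6% of all tested genes. In bulk samples, fewer cells with a transcript and less of it per cell cannot be told apart.

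**Figure D1:**
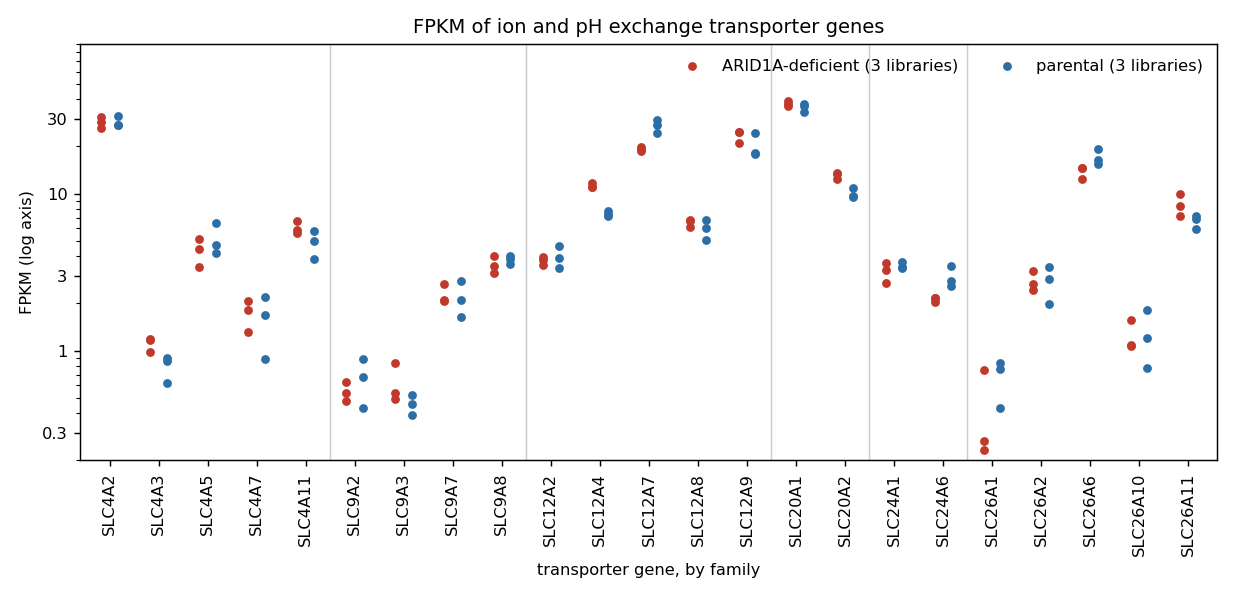
FPKM on a log axis of 23 of the 26 tested transporter genes by family, with 1 point per library, ARID1A-deficient left and parental right for each gene. SLC20A1 at 33.2 to 39.2 FPKM and SLC4A2 at 26.3 to 31.2 FPKM have the highest levels, and the groups do not overlap for the called genes SLC12A4, SLC12A7 and SLC20A2, nor for SLC4A3, SLC24A6, SLC26A6 and SLC26A11, which did not pass.

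**Figure D2:**
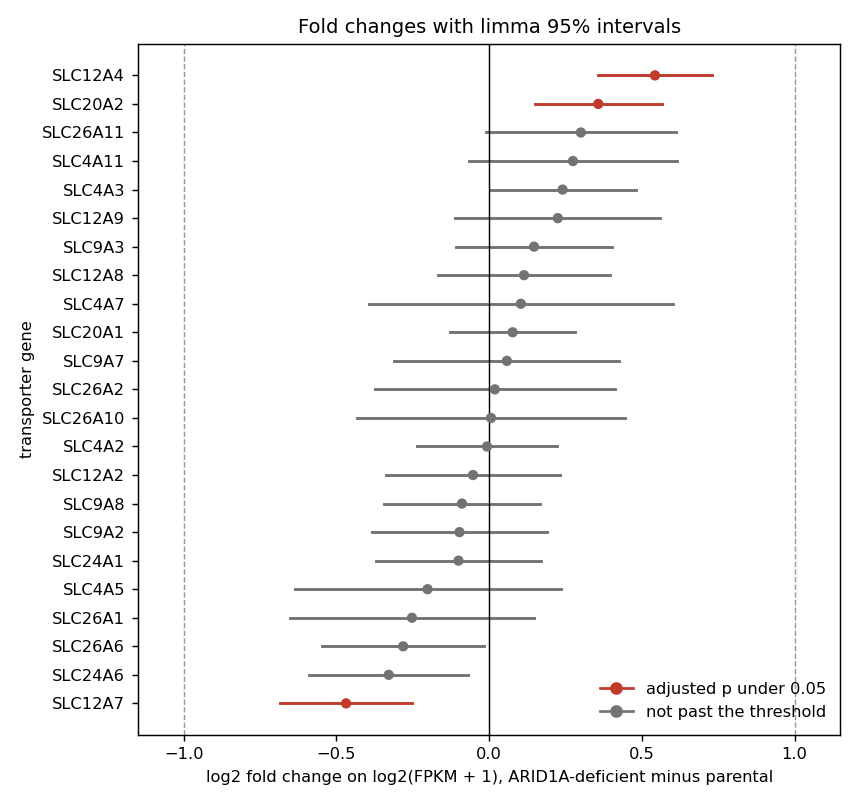
Log2 fold change, ARID1A-deficient minus parental, of 23 of the 26 tested transporter genes with limma 95% intervals. Dashed lines mark 2-fold, which no interval reaches, and the 3 genes past the adjusted threshold are coloured.

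Among the potassium-chloride cotransporters, which let chloride and potassium leave the cell together, SLC12A4 and SLC12A7 held the largest changes of all tested transporter genes on the log2(FPKM + 1) scale, and these went in opposite directions. SLC12A4, which encodes the widely expressed cotransporter KCC1, measured 11.1, 11.1 and 11.7 FPKM in ARID1A-deficient libraries, against 7.71, 7.42 and 7.18 FPKM in parental libraries. Every ARID1A-deficient library lay above every parental library. The gene rose 1.52-fold (log2 fold change 0.54, SE 0.08, limma adjusted p = 0.00492). SLC12A7, which encodes KCC4, measured 18.7, 19.7 and 19.3 FPKM in ARID1A-deficient libraries, against 29.5, 24.4 and 27.4 FPKM in parental libraries. Here every ARID1A-deficient library lay below every parental library, and the gene was 1.41-fold lower (log2 fold change -0.47, SE 0.09, limma adjusted p = 0.0158).

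SLC12A5, the mainly neuronal KCC2, was under the level filter at 0.246 to 0.292 FPKM in ARID1A-deficient and 0.202 to 0.587 FPKM in parental libraries.

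The balance of the SLC12A4 and SLC12A7 transcripts differed between the groups. The ratio of SLC12A7 to SLC12A4 within a library, in which any scaling factor of the library cancels, was 1.69, 1.78 and 1.65 in ARID1A-deficient cells, against 3.83, 3.29 and 3.81 in parental cells. This pair was chosen after its values were seen, so the ratio is given as a description.

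**Figure D3:**
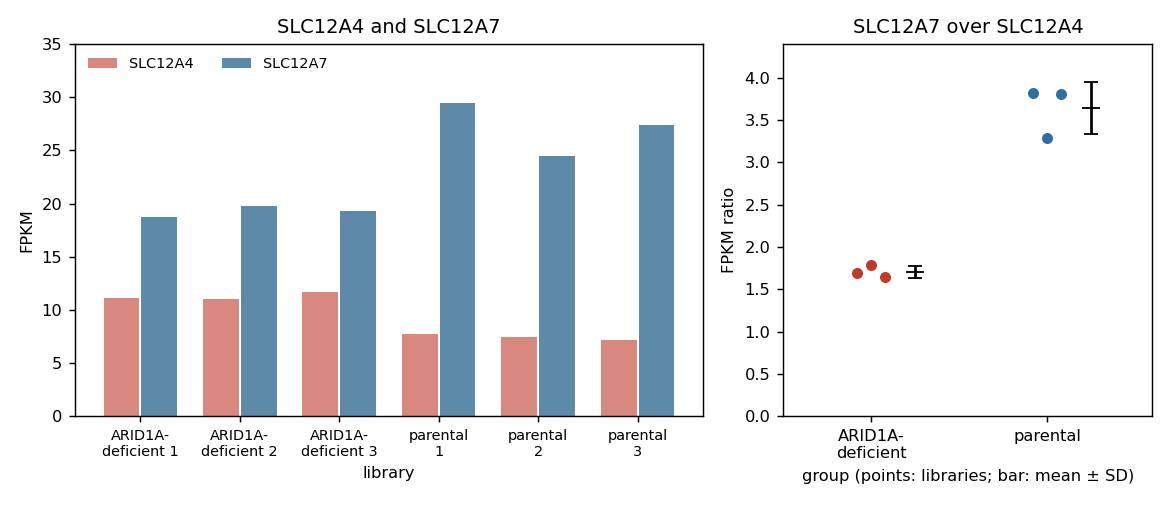
Left, FPKM of SLC12A4 and SLC12A7 in each library, with SLC12A4 at 11.1 to 11.7 FPKM in ARID1A-deficient and 7.18 to 7.71 FPKM in parental libraries. Right, the FPKM ratio of SLC12A7 to SLC12A4 in each library with mean ± SD (n = 3 each), 1.71 ± 0.0685 in ARID1A-deficient and 3.64 ± 0.304 in parental cells.

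These calls had limits. The SLC12A4 call ended when libraries were rescaled to the same FPKM sum (adjusted p = 0.0892) and held without any single library (highest adjusted p = 0.0388). The SLC12A7 call ended with equal sums (adjusted p = 0.142), without ARID1A-deficient library 1, 2 or 3 (adjusted p = 0.0621, 0.0637 and 0.0768) and without parental library 3 (adjusted p = 0.0774). LCAT, whose gene overlaps that of SLC12A4 in the RefSeq table, measured 4.0, 6.73 and 5.72 FPKM in ARID1A-deficient libraries, against 2.84, 2.58 and 2.70 FPKM in parental libraries (limma adjusted p = 0.0208), and its part in the SLC12A4 value was not tested.

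The proximal promoters of SLC12A4 and SLC12A7 are shown because these paralogs moved in opposite directions. Each line gives the 250 bases before the outermost gene start in the RefSeq table of build GRCh38.p14, which is not the GRCh37 build of the expression values, on the minus strand at chr16:67968695-67968944 and chr5:1112064-1112313. Capitals mark GC boxes, the letters GGGCGG or their complement CCGCCC, which the factor SP1 can bind.
SLC12A4: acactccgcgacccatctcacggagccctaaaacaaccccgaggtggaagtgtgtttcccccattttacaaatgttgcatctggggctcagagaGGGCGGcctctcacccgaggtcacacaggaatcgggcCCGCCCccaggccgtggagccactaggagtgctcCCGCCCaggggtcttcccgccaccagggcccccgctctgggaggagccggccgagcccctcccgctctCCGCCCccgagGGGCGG
SLC12A7: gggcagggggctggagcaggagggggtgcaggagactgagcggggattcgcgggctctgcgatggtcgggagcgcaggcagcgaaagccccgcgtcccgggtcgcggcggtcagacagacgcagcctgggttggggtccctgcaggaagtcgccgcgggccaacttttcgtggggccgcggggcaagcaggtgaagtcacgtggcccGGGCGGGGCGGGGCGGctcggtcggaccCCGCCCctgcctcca
The SLC12A4 window held 5 GC boxes and the SLC12A7 window 4 matches, of which 3 overlap. At least 1 GC box on either strand occurs in 42.6% of the 35116 promoter windows of the same length. The AP-1 letters TGANTCA were in neither window (6.57% of all windows hold them), and the E-box CACGTG was in the SLC12A7 window once and in 6.34% of all windows. A match in letters is a description of the sequence and does not show binding. The table lists 4 starts for SLC12A4 and 1 for SLC12A7, and an FPKM value per gene does not show which start was used.

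The other SLC12 genes did not pass. SLC12A2, the sodium-potassium-chloride importer NKCC1 that loads epithelial cells with chloride, measured 3.97, 3.50 and 3.75 FPKM in ARID1A-deficient libraries, against 4.61, 3.34 and 3.86 FPKM in parental libraries (log2 fold change -0.05, 95% interval -0.34 to 0.23). SLC12A9, a member whose transport role is not settled, was at 21.0 to 24.9 FPKM in ARID1A-deficient and 17.9 to 24.5 FPKM in parental libraries. It passed as higher without parental library 2, a setting in which 32.1% of all tested genes passed. SLC12A8 was at 6.09 to 6.78 FPKM in ARID1A-deficient and 5.05 to 6.81 FPKM in parental libraries. The kidney carriers SLC12A1 and SLC12A3 were listed at 0 in all 6 libraries.

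Of the phosphate carrier genes, only SLC20A1 and SLC20A2 reached the level needed for testing. SLC20A2, which encodes the sodium-phosphate cotransporter PiT2, measured 13.3, 12.3 and 13.6 FPKM in ARID1A-deficient libraries, against 10.8, 9.69 and 9.46 FPKM in parental libraries. The groups did not overlap, and the gene rose 1.31-fold (log2 fold change 0.36, SE 0.09, limma adjusted p = 0.0363). The call ended with equal FPKM sums (adjusted p = 0.311), without ARID1A-deficient library 1, 2 or 3 (adjusted p = 0.111, 0.0889 and 0.154) and without parental library 3 (adjusted p = 0.159). Its paralog SLC20A1, which encodes PiT1 and had the highest mean level of all transporter genes here, measured 39.2, 36.0 and 37.5 FPKM in ARID1A-deficient libraries, against 37.3, 33.2 and 36.3 FPKM in parental libraries. Its interval ran from -0.13 to 0.28 (limma adjusted p = 0.613). The ratio of SLC20A2 to SLC20A1 was 0.340, 0.343 and 0.361 in ARID1A-deficient libraries, against 0.290, 0.292 and 0.261 in parental libraries. Of the SLC34 phosphate carriers, SLC34A1 and SLC34A2 were listed at 0 in all 6 libraries and SLC34A3 did not exceed 0.0667 FPKM.

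None of the 6 tested sodium-proton exchangers passed the limma test. The Golgi exchanger SLC9A8 was at 3.12 to 3.98 FPKM in ARID1A-deficient and 3.55 to 3.98 FPKM in parental libraries, and SLC9A7, of the trans-Golgi network, at 2.06 to 2.65 FPKM and 1.63 to 2.79 FPKM. SLC9A2 and SLC9A3, apical exchangers of gut and kidney, were low, at 0.480 to 0.628 FPKM and 0.489 to 0.830 FPKM in ARID1A-deficient libraries, against 0.431 to 0.888 FPKM and 0.390 to 0.523 FPKM in parental libraries. SLC9A11 was listed at 0 throughout, and SLC9A4, SLC9A5, SLC9A9 and SLC9A10 were under the level filter.

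Among SLC4 carriers, SLC4A2, the housekeeping chloride-bicarbonate exchanger AE2, had near-equal means in the groups, which overlapped. It measured 26.3, 28.5 and 30.6 FPKM in ARID1A-deficient libraries, against 27.4, 31.2 and 27.3 FPKM in parental libraries, with an interval of -0.24 to 0.22 around a log2 fold change of -0.01. SLC4A3, the exchanger AE3, measured 1.19, 0.984 and 1.17 FPKM in ARID1A-deficient libraries, against 0.897, 0.854 and 0.622 FPKM in parental libraries. Its groups did not overlap, and it did not pass (limma adjusted p = 0.167). SLC4A7, the sodium-bicarbonate importer NBCn1, measured 2.07, 1.31 and 1.82 FPKM in ARID1A-deficient libraries, against 2.19, 0.886 and 1.68 FPKM in parental libraries, with a wide interval of -0.39 to 0.60. Parental library 2 was the lowest of the 6 for SLC4A7.

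SLC4A5, the electrogenic bicarbonate importer NBCe2, was at 3.39 to 5.18 FPKM in ARID1A-deficient and 4.18 to 6.52 FPKM in parental libraries. SLC4A11, a carrier known from the corneal endothelium, was at 5.63 to 6.72 FPKM in ARID1A-deficient and 3.85 to 5.79 FPKM in parental libraries (limma adjusted p = 0.261). Without parental library 2 it passed as higher, a setting in which 32.1% of all tested genes passed. SLC4A4, the importer NBCe1 that pancreatic duct cells use to take up bicarbonate, was nearly absent at 0.0278, 0.0243 and 0.0555 FPKM in ARID1A-deficient libraries, against 0.00885, 0.0113 and 0 FPKM in parental libraries. Chloride-bicarbonate exchangers SLC4A1 to SLC4A3 held 81.9% to 83.4% of the summed level of these exchangers and the bicarbonate importers in ARID1A-deficient libraries and 81.2% to 81.6% in parental libraries. SLC4A9 and SLC4A11 were left out of this sum. Most of the importer level was that of SLC4A5, whose gene overlaps that of the much higher MTHFD2, and the part of MTHFD2 in the share was not tested. SLC4A1, SLC4A8 and SLC4A9 were under the level filter and SLC4A10 was listed at 0.

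SLC26 anion exchangers had 5 tested members and none past the threshold. SLC26A6, which exchanges chloride for bicarbonate, oxalate or sulfate, measured 12.5, 14.5 and 14.6 FPKM in ARID1A-deficient libraries, against 15.5, 19.4 and 16.4 FPKM in parental libraries. The groups did not overlap (log2 fold change -0.28, SE 0.11, limma adjusted p = 0.145). With the replicate number as a block SLC26A6 passed as lower (limma adjusted p = 0.029), a setting in which 31.6% of all tested genes passed. SLC26A11, a sulfate and anion carrier, measured 7.23, 8.30 and 10.0 FPKM in ARID1A-deficient libraries, against 7.22, 6.87 and 5.98 FPKM in parental libraries (limma adjusted p = 0.185). The lowest ARID1A-deficient value and the highest parental value were almost equal. The sulfate carrier SLC26A2 was at 2.43 to 3.19 FPKM in ARID1A-deficient and 1.97 to 3.40 FPKM in parental libraries, with an interval of -0.38 to 0.41.

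SLC26A10, which the RefSeq table lists as the pseudogene SLC26A10P, was at 1.07 to 1.57 FPKM in ARID1A-deficient and 0.769 to 1.81 FPKM in parental libraries. SLC26A1, a sulfate and oxalate carrier whose gene overlaps IDUA, was at 0.234 to 0.752 FPKM in ARID1A-deficient and 0.431 to 0.835 FPKM in parental libraries. Its ratio of mean FPKM, 1.62-fold lower, exceeded that of SLC12A4, but the groups overlapped and it did not pass (limma adjusted p = 0.376). The duct and gut exchangers SLC26A3 and SLC26A9 and the thyroid and inner-ear carrier SLC26A4 did not exceed 0.0243, 0.0698 and 0.0693 FPKM. SLC26A7 was listed at 0 in every ARID1A-deficient library, against 0.0129, 0.0165 and 0.0507 FPKM in parental libraries.

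Calcium exchangers were few. SLC24A6, the older symbol of the mitochondrial sodium-calcium exchanger SLC8B1, measured 2.04, 2.17 and 2.16 FPKM in ARID1A-deficient libraries, against 2.79, 3.44 and 2.59 FPKM in parental libraries. The groups did not overlap, and the gene did not pass (log2 fold change -0.33, SE 0.11, limma adjusted p = 0.0944). With the replicate number as a block it passed as lower (limma adjusted p = 0.0361), a setting in which 31.6% of all tested genes passed. SLC24A1, a potassium-dependent sodium-calcium exchanger known from rod photoreceptors, was at 2.68 to 3.63 FPKM in ARID1A-deficient and 3.37 to 3.66 FPKM in parental libraries. The plasma-membrane exchanger SLC8A1 was low, at 0.150, 0.0923 and 0.0989 FPKM in ARID1A-deficient libraries, against 0.0563, 0.0575 and 0.0772 FPKM in parental libraries.

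SLC24A5, an exchanger of pigment organelles, measured 0.153, 0.366 and 0.381 FPKM in ARID1A-deficient libraries, against 0, 0 and 0.0845 FPKM in parental libraries. It was under the level filter and passed as higher with no filter on low values (limma adjusted p = 0.0387). MYEF2, whose gene overlaps that of SLC24A5, measured 4.32, 3.70 and 3.75 FPKM in ARID1A-deficient libraries, against 2.23, 1.30 and 2.26 FPKM in parental libraries. SLC24A2 reached 0.0310 FPKM at most. The SLC13 carriers of sulfate and citrate were all under the filter, and the highest of them, SLC13A4, was at 0.134 to 0.191 FPKM in ARID1A-deficient and 0.0621 to 0.214 FPKM in parental libraries.

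Of the 60 transporter genes, 34 were under the level filter, and 10 of these were listed at 0 in all 6 libraries. A listed 0 can be a failed estimate, since the tubulin gene TUBB, which cells generally express, was listed at 0 in all 6 libraries. SLC4A4, SLC8A1, SLC24A2, SLC24A5 and SLC26A7 were the genes under the filter whose groups did not overlap and whose higher group was above 0 in every library. They were not tested in the main fit, and the share of all genes under the filter with such groups is not given here. SLC4A4, SLC24A2 and SLC26A7 did not exceed 0.0555, 0.0310 and 0.0507 FPKM in any library. With no filter on low values SLC24A5 passed, and SLC4A4, SLC8A1, SLC24A2 and SLC26A7 did not (limma adjusted p = 0.291, 0.220, 0.557 and 0.349). SLC24A6, SLC4A3 and SLC26A11 were singled out after their values were seen.

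Some genes that carriers of this kind work with had larger single changes than any tested transporter gene. Of 116 companion symbols in 5 lists, 112 had a row and 70 were tested. Of these 70, 6 were higher, 11 lower and 53 not past the threshold, or 24.3% called beside 15.9% of all tested genes. Their median log2 fold change was -0.05. An absolute log2 fold change of 1 was reached by 4 of the 70, beside 673 of all 12826 tested genes. The companion lists were chosen with earlier results of these data known, so the share called and the single changes are given as a description. Among regulators of carriers 20 were tested, with 4 higher and 4 lower. SGK1, a kinase that raises the surface activity of sodium channels and exchangers, measured 52.4, 45.7 and 46.5 FPKM in ARID1A-deficient libraries, against 9.07, 7.93 and 9.25 FPKM in parental libraries. It rose 5.51-fold (log2 fold change 2.34, SE 0.10, limma adjusted p = 1.95e-05).

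STC1, which encodes the secreted hormone stanniocalcin, known in fish and mammals for calcium and phosphate handling, measured 171, 156 and 158 FPKM in ARID1A-deficient libraries, against 74.2, 57.0 and 68.0 FPKM in parental libraries (limma adjusted p = 0.00103). TESC, a calcium-binding protein that regulates sodium-proton exchange, measured 1.95, 3.05 and 1.56 FPKM in ARID1A-deficient libraries, against 4.25, 6.45 and 4.47 FPKM in parental libraries (limma adjusted p = 0.0259). The TESC call ended without ARID1A-deficient library 1 or 3 or parental library 3 (highest adjusted p = 0.103).

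The other called regulators were chosen after their values were seen. SLC9A3R1, the scaffold NHERF1 that anchors NHE3 at the apical membrane, measured 40.1, 45.9 and 46.4 FPKM in ARID1A-deficient libraries, against 78.4, 95.2 and 75.1 FPKM in parental libraries, and was 1.88-fold lower (limma adjusted p = 0.00416). Its partner EZR, the membrane-actin linker ezrin, moved the other way and rose 1.54-fold to 189 ± 4.48 FPKM in ARID1A-deficient cells, against 123 ± 3.16 FPKM in parental cells (SD, n = 3 each; limma adjusted p = 0.00933). The EZR call ended without ARID1A-deficient library 3 or parental library 3 (highest adjusted p = 0.0624). XPR1, the phosphate exporter, was 1.85-fold lower at 8.84 ± 0.947 FPKM in ARID1A-deficient and 16.3 ± 3.22 FPKM in parental cells (SD, n = 3 each; limma adjusted p = 0.0147). That call ended with equal FPKM sums, without ARID1A-deficient library 2 or 3 and without parental library 3 (highest adjusted p = 0.0971). WNK4 rose and SGK3 fell, with limma adjusted p of 0.0472 and 0.0312, and both calls ended under several alternatives (highest adjusted p = 0.159 and 0.105).

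Pumps and channels had 1 of 23 tested members higher and 2 lower, or 13% called beside 15.9% of all tested genes. SCNN1A, the alpha subunit of the epithelial sodium channel, measured 17.1, 18.1 and 18.5 FPKM in ARID1A-deficient libraries, against 36.9, 43.7 and 37.7 FPKM in parental libraries, and was 2.2-fold lower (log2 fold change -1.09, SE 0.09, limma adjusted p = 0.000480). ANO1, a calcium-activated chloride channel, measured 51.4, 46.6 and 51.4 FPKM in ARID1A-deficient libraries, against 114, 78.7 and 98.9 FPKM in parental libraries (log2 fold change -0.94, limma adjusted p = 0.00688). ATP1B3, a beta subunit of the sodium-potassium pump, rose 1.40-fold (limma adjusted p = 0.0405), a call that ended with equal medians and without any single library but parental library 2 (highest adjusted p = 0.191). CFTR, the anion channel of duct epithelium, was listed at 0 in all 6 libraries.

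Carbonic anhydrases interconvert carbon dioxide and bicarbonate and feed the acid-base carriers, and 3 were tested. CA9, a surface enzyme induced by hypoxia, measured 1.22, 1.26 and 1.28 FPKM in ARID1A-deficient libraries, against 8.09, 13.6 and 10.5 FPKM in parental libraries, and was 8.58-fold lower (log2 fold change -2.36, SE 0.17, limma adjusted p = 0.000230). The other tested carbonic anhydrases did not pass. V-ATPase subunits, which acidify organelles, had 1 of 21 tested members higher and 4 lower, or 23.8% called beside 15.9% of all tested genes. Their median log2 fold change was 0.16, against -0.01 over all tested genes. The groups did not overlap for 7 members higher and 4 lower in ARID1A-deficient cells. Together that is 52.4%, beside 35.3% of all tested genes (16.7% above and 18.6% below). The direction of the called members therefore differed from that of the median. ATP6V1D rose 1.46-fold (limma adjusted p = 0.00709). TCIRG1, the a3 subunit gene, was 1.75-fold lower (limma adjusted p = 0.0201) and ATP6V1E2 1.84-fold lower (limma adjusted p = 0.00984). The TCIRG1 call ended without ARID1A-deficient library 1 or 3 or parental library 3 (highest adjusted p = 0.0703), and that of ATP6V1E2 without ARID1A-deficient library 3 (adjusted p = 0.0536). The other lower calls, ATP6V0A1 and ATP6V1C2, had limma adjusted p of 0.0480 and 0.0394 and ended in 11 of 15 and 6 of 14 alternatives (highest adjusted p = 0.169 and 0.156). None of the 3 tested exchangers outside the symbol rule passed by limma, the only tool run. Before adjustment, 1 had a p under 0.05 with a higher level, as did 1771 of all 12826 tested genes.

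**Figure D4:**
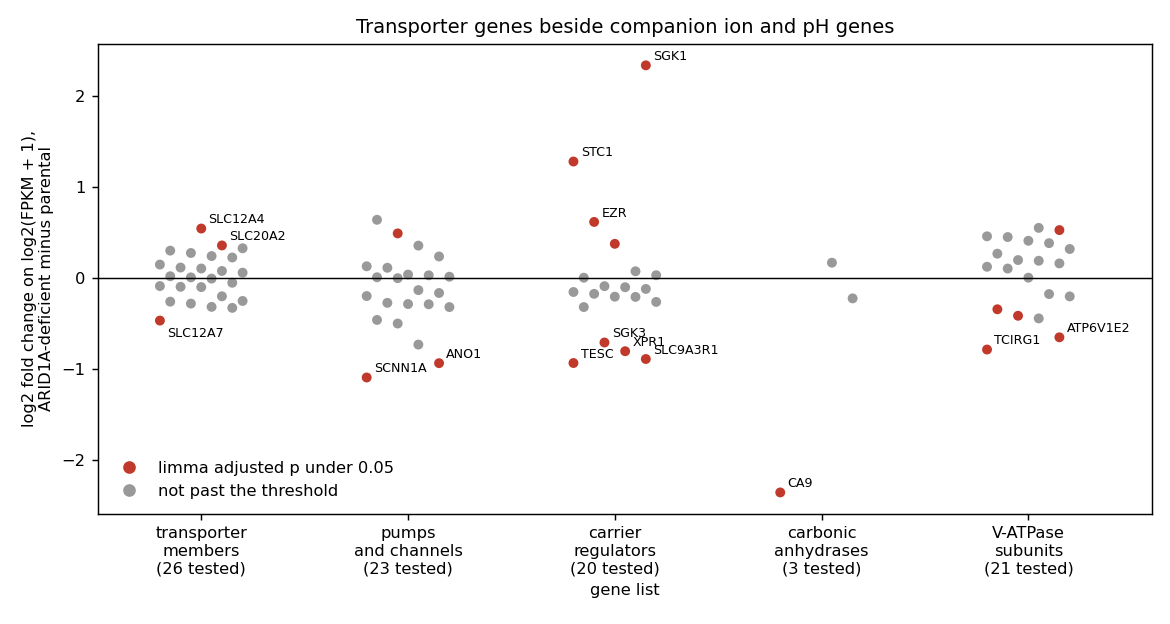
Log2 fold change, ARID1A-deficient minus parental, of tested transporter genes and of companion genes in 4 lists, with 1 point per gene and genes past the limma threshold coloured. The transporter genes lie between -0.47 for SLC12A7 and 0.54 for SLC12A4, while SGK1 reaches 2.34 and CA9 -2.36. The companion lists were chosen with earlier results of these data known.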

How the data were processed

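The libraries came from the L3.6pl line per the labels, and sample titles divided them into 3 ARID1A-deficient and 3 parental ones. Per the labels' protocols, TRIzol RNA went into a TruSeq RNA kit that does not mark strand. The authors deposited 1 FPKM value per gene symbol and library. Per the submitters' processing notes, the build was GRCh37 and the tools included Cuffdiff 2.2.1.5, Cuffnorm 2.2.1.2 and TopHat2 2.1.1. Scaling options, annotation and total fragments are not stated there, so precision rests on the spread between libraries. Per the file headers, columns are numbered 1, 0 and 2 for title replicates 1 to 3 in each group.

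Of 23273 rows, 28 held calendar dates in place of symbols and were left out. Limma 3.58.1 (R 4.3.3), with mean-variance trend and robust moderation, was fitted on log2(FPKM + 1) to genes whose mean reached 0.5 FPKM, with group as the only term, two-sided p-values and Benjamini-Hochberg adjustment at 0.05 over all 12826 genes, after a check on simulated data. FPKM folds divide group means. Alternatives changed the pseudocount, filter, scaling, variance model, replicate block, length covariate and libraries, 1 at a time. Neighbouring and overlapping genes came from a RefSeq table of GRCh38 (96.7% of tested genes placed), and RefSeq promoters of GRCh38.p14 were matched by symbol for 47 of 60 members.

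The members and lists were chosen with earlier results of these data known. Named genes are every member past the threshold, the highest member of each of the 9 families, SLC4A2, SLC4A4, SLC4A7, SLC12A2, SLC12A7, SLC20A1, SLC26A6 and SLC34A2, members under the filter with separate groups, and per companion list the 3 called genes with the largest change, plus CFTR and CA9. Some genes that this rule names are not reported here. SLC24A6, on a companion list and a member by symbol, was counted as a member. That list also held SLC8B1, SLC9C1 and SLC9C2, the current symbols of the members SLC24A6, SLC9A10 and SLC9A11. These symbols are among the 116 listed but had no row of their own, so none was among the 70 tested companions.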

Additional observations from a re-analysis of the deposited data

How the results depend on the processing

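Transporter genes called higher numbered 2 and lower 1. With equal FPKM sums both counts were 0, and the whole table had 1483 calls instead of 2043. Leaving out single libraries gave 1 to 4 higher and 0 to 2 lower, with the most calls without parental library 2 (4 higher and 2 lower, and 4113 over all genes). Only SLC12A4 was called without ARID1A-deficient library 1, 2 or 3 or parental library 3 (1 higher and 0 lower each), where all genes gave 1261, 1064, 960 and 1033 calls. The replicate block, with the title's number as a block, gave 3 higher and 4 lower transporter genes, 15 higher and 19 lower companion genes and 4049 calls over all genes. Deviations of same-numbered libraries from their group means correlated at 0.219, 0.217 and -0.0131. For differently numbered libraries the correlations were -0.267 to 0.0825. The main fit did not take the numbers as pairs, and whether same-numbered libraries were handled together was not tested. Companion genes called higher numbered 6, and 10 with equal sums, 11 with quantile normalization and 3 to 16 without single libraries, lowest without ARID1A-deficient or parental library 3. Called lower were 11, and 4 to 19 without single libraries (6 without ARID1A-deficient library 1). The SLC12A4, SLC12A7 and SLC20A2 changes kept their direction under all 15 alternatives, with log2 fold changes of 0.52 to 0.60, -0.54 to -0.41 and 0.32 to 0.41. Both transporter counts were unchanged with a pseudocount of 0.1, a minimum mean of 3 FPKM, equal medians, quantile normalization, no variance trend or the length slope as covariate. The 34 genes under the level filter were not tested in the main fit. The 24 of them above 0 in any library were tested with no filter on low values, where SLC24A5 passed. The cause of these differences was not tested.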

Other observations

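RefSeq spans of 17 transporter genes overlap another protein-coding gene, 12 of them among the tested ones, and the libraries do not mark strand. SLC4A5 at 3.39 to 6.52 FPKM over all 6 libraries shares its place with MTHFD2, a mitochondrial folate enzyme, which measured 164, 149 and 152 FPKM in ARID1A-deficient libraries, against 260.0, 239.8 and 265 FPKM in parental libraries (log2 fold change -0.71, limma adjusted p = 0.00857). SLC4A11 overlaps ITPA, which was at 78.4 to 103 FPKM in ARID1A-deficient and 56.6 to 105 FPKM in parental libraries, with parental library 2 highest for both genes within the parental group. LCAT beside SLC12A4 and MYEF2 beside SLC24A5 were higher in ARID1A-deficient cells, as were SLC12A4 and SLC24A5. How far overlapping reads enter these values was not tested.

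The 40 tested genes nearest to SLC4A5 and the 33 nearest to SLC26A1 had median log2 fold changes of -0.31 and -0.23. Near SLC12A4 the median was 0.10, near SLC12A7, with 35 neighbours, 0.07, and near SLC20A2 -0.02.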
